A study of Mus musculus with 16 samples.

Results

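The genes described here are those of the mouse mitochondrial genome, followed in microglia sorted from the brain. All 37 genes of this genome were among the 17951 genes of the deposited table: 2 ribosomal RNA (rRNA) genes, 13 protein genes and 22 transfer RNA (tRNA) genes. Members were chosen as the rows whose symbol starts with mt-. No deposited symbol did so; 24 rows had no symbol and took it from the reference annotation by gene identifier (both rRNA genes and the tRNA genes), and the 13 protein genes, deposited under other names such as ND1 or CYTB, were taken in because their reference symbol starts with mt-. The genes lie on the GRCm38 mitochondrial chromosome, 28 on the plus and 9 on the minus strand, and were described by their RNA level, not by any readout used to choose them.

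RNA sequencing was carried out on 16 libraries of CD11b+ CD45+ cells from 5xFAD mice and wild-type controls, all from animals that had received methoxy-X04, a dye that enters the brain and stains amyloid beta. The wild-type group (WT, n = 7) held methoxy-X04-negative cells of non-transgenic animals labelled as 2 months old. Transgenic animals (TG), labelled as 6 months old, gave the TG Me-X04- group (n = 5, cells without the dye) and the TG Me-X04+ group (n = 4, cells with it). Libraries with the same number in both groups were taken to come from the same animal. Below, Me-X04+ and Me-X04- without further mark are these transgenic groups. The 5xFAD line expresses mutant human amyloid precursor protein and presenilin genes from a promoter active in neurons, so that the transgenes are not aimed at the sorted cells. By the labels, genotype and age cannot be told apart in any comparison with WT, although the methods of the study give other ages. The comparison of both transgenic groups asks how dye-laden cells differ from their neighbours in the same brains, and that of TG Me-X04- with WT asks about genotype without dye uptake.

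The mitochondrial genome is transcribed from both strands as long precursors that hold many genes each. The tRNAs punctuate these precursors and are cut out by dedicated nucleases, which frees the rRNAs and mRNAs between them. The rRNAs form the mitochondrial ribosome, and the protein genes encode core subunits of respiratory complexes I, III and IV and of ATP synthase (complex V), whose other subunits, together with complex II, are encoded in the nucleus.

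The first sequences shown are tRNAs whose levels stand at the ends of the range or moved differently between libraries, read 5′ to 3′ from the Gencode M21 transcripts (GRCm38), with the anticodon in capitals. mt-Tf, at positions 1 to 68 on the plus strand, opens the genome and reads phenylalanine codons, and mt-Tv, at 1025 to 1093, is the valine tRNA between the rRNA genes. mt-Tl1, at 2676 to 2750, is a leucine tRNA that follows mt-Rnr2. mt-Ts1 (6870 to 6938, minus strand) and mt-Ts2 (11613 to 11671, plus strand) are the serine tRNAs, and mt-Tt (15289 to 15355) is the threonine tRNA. 
mt-Tf: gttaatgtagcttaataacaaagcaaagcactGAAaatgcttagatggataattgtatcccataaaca
mt-Tv: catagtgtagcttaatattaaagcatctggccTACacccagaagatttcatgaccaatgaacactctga
mt-Tl1: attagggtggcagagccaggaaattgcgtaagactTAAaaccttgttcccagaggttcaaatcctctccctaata
mt-Ts1: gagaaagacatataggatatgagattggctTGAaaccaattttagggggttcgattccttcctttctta
mt-Ts2: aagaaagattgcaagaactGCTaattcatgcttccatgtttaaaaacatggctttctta
mt-Tt: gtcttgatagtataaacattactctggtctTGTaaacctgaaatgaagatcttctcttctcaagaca

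The second set shows why some protein genes are uncertain. A block of pseudogenes on chromosome 1 (24611535 to 24616197, minus strand, GRCm38) repeats part of the mitochondrial genome nearly letter for letter, and another on chromosome 2 does so with more differences. mt-Nd4l, a complex I subunit gene at 9877 to 10173, is 297 bases long, and its first 294 are identical to Gm10222; only the closing stop codon, in capitals, is outside the copy.
mt-Nd4l: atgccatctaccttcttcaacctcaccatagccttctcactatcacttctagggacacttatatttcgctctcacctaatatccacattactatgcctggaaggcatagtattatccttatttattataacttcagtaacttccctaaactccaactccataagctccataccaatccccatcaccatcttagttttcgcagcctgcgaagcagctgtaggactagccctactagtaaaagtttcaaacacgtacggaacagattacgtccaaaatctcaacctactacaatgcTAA

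For mt-Nd3, another complex I gene, and its chromosome 1 copy Gm28438, the only difference in 345 aligned bases lies within transcript bases 1 to 60, shown with the differing letter in capitals. For mt-Co1, the catalytic subunit of complex IV, and the chromosome 2 pseudogene Gm13340, 37 of 1545 bases differ, and bases 460 to 519 hold 4 of them.
mt-Nd3: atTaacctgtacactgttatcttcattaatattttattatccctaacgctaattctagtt
Gm28438: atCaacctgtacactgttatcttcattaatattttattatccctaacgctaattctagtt
mt-Co1: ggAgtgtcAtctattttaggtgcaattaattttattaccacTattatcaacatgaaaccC
Gm13340: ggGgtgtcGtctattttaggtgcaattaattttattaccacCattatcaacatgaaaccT

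The deposited values are log2 RPKM, that is reads per kilobase of gene and per scaled library size, from which the whole reads of each gene were recovered. Reads on listed genes ran from 15623664 to 22119327 in WT, from 17216633 to 25184600 in Me-X04- and from 22430251 to 27579017 in Me-X04+. The scaled library size behind the deposited values was 0.932 to 1.27 times these reads in WT, 0.790 to 1.43 times in Me-X04- and 0.543 to 0.981 times in Me-X04+. Among nuclear genes, 37.7% of the variance around the group means lay on 1 component, which split the libraries into set A (WT 1 to 3 and animals 1 and 2 of both transgenic groups, 7 libraries) and set B (the other 9). No label names these sets. The study's methods name 2 sequencers with unlike read lengths for the sorted cells, the second for samples added later. Which libraries each one ran is not given, so that the sets cannot be tied to them. All 12 microglial markers were in the table, with a summed level of 5877 to 7815 RPKM in WT, 5075 to 9347 in Me-X04- and 7685 to 10070 in Me-X04+.

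Mitochondrial RNA took a larger share of the reads in Me-X04+ than in Me-X04- cells of each animal. Of reads on listed genes, the 37 genes held 12.6% to 31.4% in the 7 WT libraries (median 26.7%). They held 38.9%, 44.8%, 20.9%, 20.6% and 21.1% in Me-X04- libraries 1 to 5, and 55.2%, 56.8%, 31.3% and 32.0% in Me-X04+ libraries 1 to 4. The pooled groups overlap. Set A libraries lay above set B libraries in both transgenic groups, while in WT the sets overlapped. Within each set both Me-X04+ libraries lay above every library of the other groups.

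Group means were 23.4% ± 7.07 (SD, n = 7) in WT, 29.3% ± 11.7 (SD, n = 5) in Me-X04- and 43.8% ± 14.1 (SD, n = 4) in Me-X04+. Within animals 1 to 4, the share in Me-X04+ cells was 1.42, 1.27, 1.50 and 1.55 times that in Me-X04- cells. As a ratio of mitochondrial to other reads, which is not bounded, the same comparison gave 1.93, 1.62, 1.72 and 1.82 times. All 4 animals differed in the same direction. In set A, WT (26.7% to 31.4%) and Me-X04- (38.9% and 44.8%) did not overlap, whereas in set B WT (12.6% to 26.9%) enclosed Me-X04- (20.6% to 21.1%). These shares are sums over all members and are given without a test. Genes with no read moved with the share within animals: they numbered 1831, 1781, 524 and 450 in Me-X04+ libraries 1 to 4, 503, 703, 95 and 101 in the Me-X04- libraries of the same animals, and 55 to 1381 in WT. The part of this difference in the mitochondrial share was not tested.

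**Figure D1:**
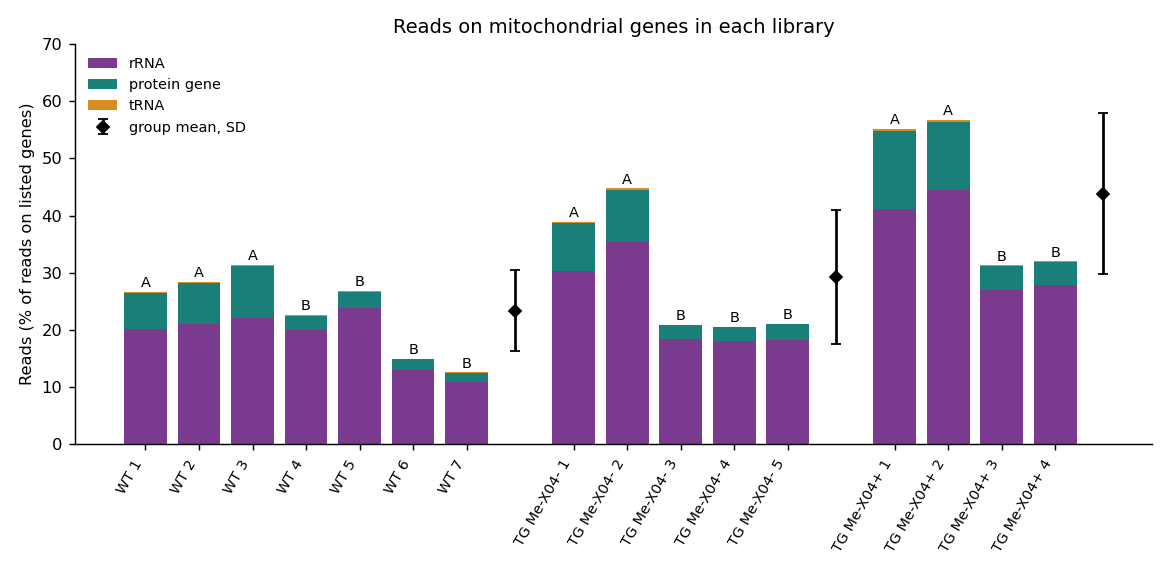
Reads on mitochondrial rRNA, protein and tRNA genes as a percentage of reads on all listed genes in each library (stacked bars; the letter above a bar is its set, diamonds and bars are group means ± SD). Me-X04+ libraries 1 and 2 reach 55.2% and 56.8%, and libraries 3 and 4 reach 31.3% and 32.0%, each above the Me-X04- library of the same animal.

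Most of these reads lay on the rRNAs. mt-Rnr2 (16S, positions 1094 to 2675) and mt-Rnr1 (12S, 70 to 1024) together took 10.9% to 23.9% of reads in WT, 18.1% to 35.4% in Me-X04- and 27.0% to 44.4% in Me-X04+. The protein genes took 1.63% to 8.996%, 2.36% to 9.13% and 4.02% to 13.7%, and the tRNA genes 0.065% to 0.210%, 0.112% to 0.244% and 0.169% to 0.337%. All 3 classes were higher in the Me-X04+ fraction of each animal: 1.26 to 1.54 times for the rRNAs, 1.315 to 1.72 times for the protein genes and 1.34 to 1.60 times for the tRNAs.

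The rRNA and protein parts of mitochondrial RNA differed between the sets of libraries without overlap, whereas the groups overlapped. Of mitochondrial reads, rRNA was 70.6% to 79.1% in set A and 86.4% to 88.9% in set B, while it was 70.6% to 88.9% in WT, 78.0% to 88.2% in Me-X04- and 74.5% to 86.9% in Me-X04+. Protein genes made up 20.4% to 28.7% in set A and 10.4% to 12.99% in set B. The tRNA part overlapped, with 0.545% to 0.670% in set A and 0.519% to 0.697% in set B. Values pooled over the sets therefore carry this split as spread.

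Compared gene by gene, all 37 mitochondrial genes had a higher mean log2 RPKM in Me-X04+ than in Me-X04-, with a median log2 fold change (log2FC) of 1.39 against -0.10 over nuclear genes. With limma on the deposited values (a gene was called where its Benjamini-Hochberg adjusted p fell under 0.05 and its log2FC reached 0.7 in size), 8 of the 37 were called and rose, where 3.44% of all genes tested rose. They were 7 tRNA genes and mt-Nd3. When the animal was kept as a random block, 15 were called (13 tRNA genes, mt-Co3 and mt-Nd3), against 6.28% of all genes. With the replicate number as a fixed block, 14 were called against 3.25%. With a term for the sets of libraries, 33 were called, against 7.38%. The other 4 were mt-Rnr1 (adjusted p = 0.0601 by limma), mt-Rnr2 (0.148), mt-Tv (0.0598) and mt-Tt (0.0961). The sets were read off the nuclear genes of these same libraries, whereas the fit takes them as known. All p-values with the set term make no allowance for that choice and may be too small. In bulk libraries, more mitochondrial RNA per cell and a different mixture of cells cannot be told apart.

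These calls rest on the scale used. With library sizes set by non-mitochondrial reads, the median log2FC of nuclear genes moved from -0.10 to -0.36, that of mitochondrial genes from 1.39 to 1.11, and 3 rose, where 1.72% of all genes did. After quantile normalization the median of the 37 was 0.52, 36 were positive and limma called none, where 2.35% of all genes rose and 3267 genes had an unadjusted p under 0.05. limma voom on the recovered reads called 9, where 4.11% of all genes rose.

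Across single libraries the groups were seldom separate as a whole but nearly always within a set. Me-X04+ did not overlap Me-X04- from above for 7 of 37 genes (mt-Ti, mt-Tc, mt-Ty, mt-Tg, mt-Nd3, mt-Ts2 and mt-Tp), where 4.8% of all genes did so. Within both sets 35 genes did so, where 10.4% of all genes did, the exceptions being mt-Th and mt-Tt. In paired differences, 36 of 37 genes were higher in the Me-X04+ cells of each of the 4 animals, where 15.1% of all genes were, and mt-Tt was higher in 3. The median difference over the 37 genes was 1.37, 0.98, 1.24 and 1.16 in animals 1 to 4.

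**Figure D2:**
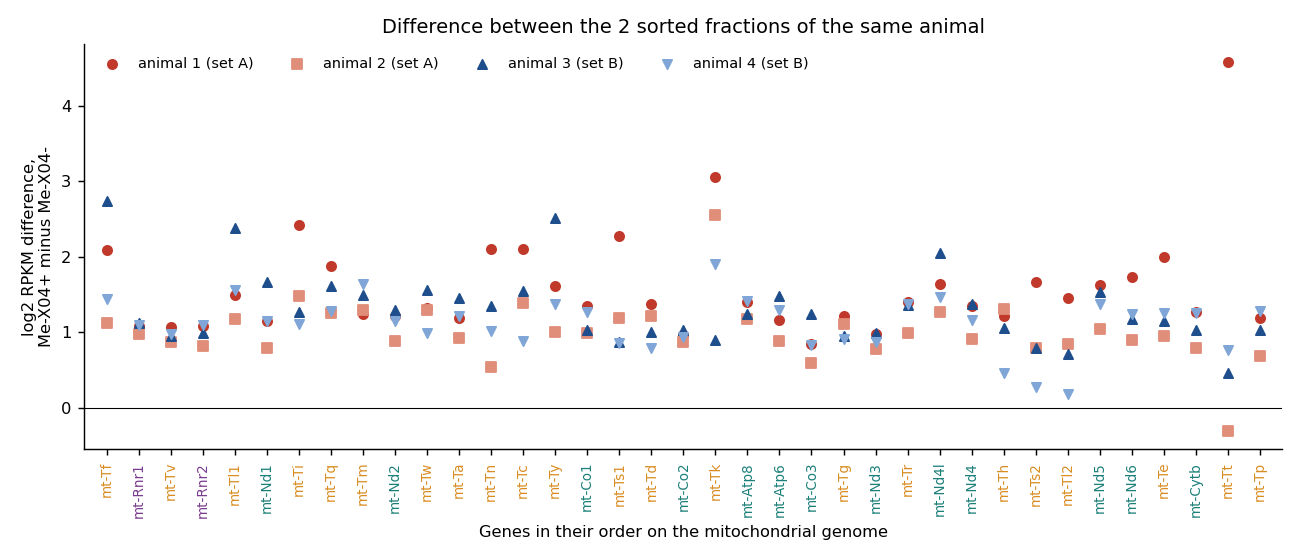
Difference in log2 RPKM between the Me-X04+ and Me-X04- fractions of the same animal for each mitochondrial gene in genome order (names in purple are rRNA, green protein and orange tRNA genes). All points but 1 lie above 0, the exception being mt-Tt in animal 2, and the rRNA points fall between 0.82 and 1.13.

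The rRNA genes were the most abundant of the table per length. mt-Rnr2 had a log2 RPKM of 15.33 to 16.70 in WT (median 16.33), of 17.18, 17.62, 15.94, 16.09 and 15.91 in Me-X04- libraries 1 to 5, and of 18.26, 18.44, 16.92 and 17.19 in Me-X04+ libraries 1 to 4. mt-Rnr1 had 14.49 to 16.14 in WT (median 15.65), 16.61, 17.04, 15.20, 15.42 and 14.97 in Me-X04-, and 17.69, 18.02, 16.33 and 16.51 in Me-X04+. The pooled groups overlap for both, and the fractions of each animal differ in the same direction by similar amounts, 0.82 to 1.10 for mt-Rnr2 and 0.98 to 1.13 for mt-Rnr1. The fitted log2FC was 1.16 ± 1.54 (SE) for mt-Rnr2 and 1.29 ± 1.28 for mt-Rnr1, and neither passed the test with or without the set term. These standard errors come from a spread that limma ties to the level, and with the set term they were 0.46 and 0.39.

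No difference in the proportion of both rRNAs passed the test. The log2 ratio of mt-Rnr2 to mt-Rnr1 was 0.76 ± 0.29 (SD, n = 7) in WT, 0.70 ± 0.15 (n = 5) in Me-X04- and 0.56 ± 0.10 (n = 4) in Me-X04+. Me-X04+ lay 0.13 below Me-X04- (exact two-sided permutation p = 0.206, adjusted over 3 comparisons 0.336) and 0.19 below WT (exact p = 0.224, adjusted 0.336), and Me-X04- lay 0.06 below WT (exact p = 0.684). The test takes the libraries as unpaired. In animals 1 to 4 the ratio was 0.56, 0.42, 0.59 and 0.68 in Me-X04+ and 0.57, 0.58, 0.73 and 0.67 in Me-X04-, so that it was not lower in Me-X04+ in animal 4. Me-X04- library 5, in set B and without a Me-X04+ library of the same number, had 0.94. Within set A the TG groups differed by -0.08 and within set B by -0.15, where the smallest p that the exact test allows is 0.333 and 0.2. Against WT the sign depended on the set: Me-X04- differed by 0.10 in set A and -0.19 in set B (exact p = 0.2 and 0.114), and Me-X04+ by 0.02 and -0.34 (exact p = 1 and 0.133), where the smallest p allowed is 0.2 in set A and, in set B, 0.0571 and 0.133.

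Protein genes of complex I are spread along the plus strand, apart from mt-Nd6 on the minus strand. mt-Nd3 had a log2 RPKM of 6.50 to 8.12 in WT (median 7.58), of 7.97, 8.43, 7.90, 7.68 and 7.33 in Me-X04-, and of 8.95, 9.21, 8.90 and 8.56 in Me-X04+. All Me-X04+ libraries lay above all others, and the gene rose by a log2FC of 1.04 ± 0.30 (limma adjusted p = 0.0492). Its call was lost in 22 of 36 alternative fits, over which the log2FC ran from 0.18 to 1.18. mt-Nd3 was the lowest protein gene per length, and its reads are shared with Gm28438. mt-Nd4l, nearly all of which is repeated in Gm10222, had 8.64 to 12.49 in WT (median 9.75), 12.15, 12.53, 9.35, 9.46 and 9.44 in Me-X04-, and 13.79, 13.80, 11.40 and 10.92 in Me-X04+. Set A and set B stood apart in each group, and the log2FC of 1.89 ± 0.97 did not pass (adjusted p = 0.315) but became 1.61 ± 0.23 with the set term (adjusted p = 0.000237).

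mt-Nd6 had 8.76 to 12.13 in WT (median 9.70), 11.73, 12.21, 9.66, 9.39 and 9.79 in Me-X04-, and 13.46, 13.10, 10.83 and 10.64 in Me-X04+. It showed the same pattern as the plus-strand genes, with a log2FC of 1.45 ± 0.86 (adjusted p = 0.392) and of 1.21 ± 0.20 with the set term (adjusted p = 0.000887). Whether reads were assigned by strand is not given in the sources used here, so that reads of mt-Nd6 and of the RNA opposite to it cannot be told apart. The same holds for the tRNA genes on the minus strand, among them the called mt-Tc, mt-Ty, mt-Tn and mt-Tp. The other complex I genes, mt-Nd1, mt-Nd2, mt-Nd4 and mt-Nd5, had log2FC values of 1.39, 1.48, 1.50 and 1.63, and none passed without the set term.

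The complex III gene mt-Cytb (cytochrome b, 14145 to 15288) had 10.56 to 13.60 in WT (median 11.61), 13.45, 13.73, 11.10, 11.19 and 11.01 in Me-X04-, and 14.72, 14.51, 12.12 and 12.45 in Me-X04+. mt-Co1, the most abundant mRNA per length, had 11.57 to 13.73 in WT (median 12.24), 14.01, 14.33, 11.84, 12.11 and 12.09 in Me-X04-, and 15.35, 15.32, 12.87 and 13.38 in Me-X04+. In both genes the sets differed by more than the sorted fractions, and within each set the Me-X04+ libraries were the highest. The log2FC was 1.36 ± 0.84 for mt-Cytb and 1.35 ± 0.80 for mt-Co1, neither of which passed, and 1.13 ± 0.24 (adjusted p = 0.00484) and 1.16 ± 0.24 (adjusted p = 0.00331) with the set term.

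The other complex IV genes were mt-Co2 (log2FC 1.14 ± 0.60) and mt-Co3 (0.97 ± 0.31, adjusted p = 0.0773), and the ATP synthase genes were mt-Atp6 (1.44 ± 0.78) and mt-Atp8 (1.60 ± 1.04). mt-Atp8 had 8.93 to 12.98 in WT (median 10.43), 12.99, 13.32, 10.01, 9.91 and 10.11 in Me-X04-, and 14.39, 14.49, 11.26 and 11.32 in Me-X04+. None of these 4 passed on the deposited values, and all 13 protein genes passed with the set term, with log2FC values of 0.93 to 1.61. mt-Atp8 and mt-Atp6 overlap by 43 bases on the same strand, and their reads are not independent.

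**Figure D3:**
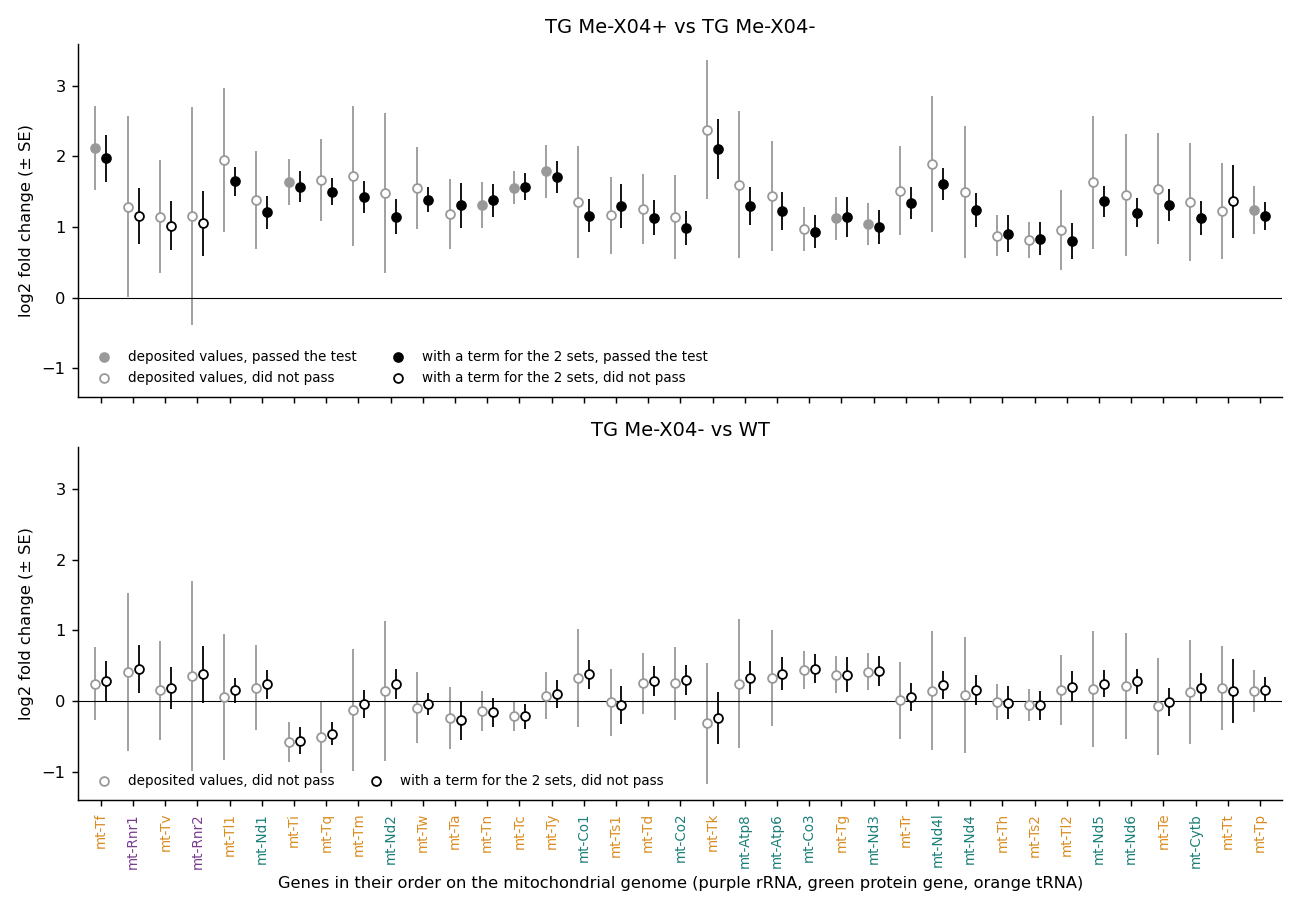
log2 fold change ± SE by limma for each mitochondrial gene in genome order, for Me-X04+ against Me-X04- (top) and Me-X04- against WT (bottom), on the deposited values (grey) and with a term for the sets of libraries (black); filled points passed the test. At the top, 8 grey and 33 black points are filled and all lie above 0, and at the bottom none is filled.

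The tRNA genes gave 7 of the 8 calls, with log2FC values between 0.82 and 2.38 over the 22. They are 59 to 75 bases long, and whether a read came from a mature tRNA or from a longer RNA across the gene, on either strand, was not tested. mt-Tf had a log2 RPKM of 7.34 to 9.83 in WT (median 8.97), of 9.70, 10.41, 8.003, 8.52 and 7.80 in Me-X04-, and of 11.79, 11.53, 10.74 and 9.96 in Me-X04+. One library of Me-X04- (animal 2) lay above the lowest of Me-X04+, and the gene rose by 2.12 ± 0.59 (adjusted p = 0.0441). Its call was lost in 16 of 36 alternative fits.

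mt-Tc, the cysteine tRNA on the minus strand (5192 to 5257), had 6.95 to 7.33 in WT (median 7.17), 6.54, 6.65, 7.37, 7.46 and 6.65 in Me-X04-, and 8.65, 8.04, 8.92 and 8.35 in Me-X04+. It varied little between the sets, the groups did not overlap, and it rose by 1.56 ± 0.23, with the smallest adjusted p of the members (0.00107). mt-Ty, the tyrosine tRNA beside it, had 6.88 to 8.57 in WT (median 7.67), 8.13, 8.51, 7.04, 7.82 and 7.06 in Me-X04-, and 9.74, 9.51, 9.56 and 9.19 in Me-X04+, and rose by 1.79 ± 0.38 (adjusted p = 0.00983).

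mt-Ti, the isoleucine tRNA, had 6.86 to 8.47 in WT (median 7.96), 7.34, 7.43, 7.34, 7.22 and 6.98 in Me-X04-, and 9.77, 8.91, 8.61 and 8.33 in Me-X04+. The Me-X04- libraries lay in the lower part of the WT range and all Me-X04+ libraries above Me-X04-, with a rise of 1.64 ± 0.33 (adjusted p = 0.00719). The remaining calls were mt-Tn (asparagine, 1.31), mt-Tg (glycine, 1.13) and mt-Tp (proline, 1.24). Among the tRNA genes that did not pass were mt-Tm (1.72), mt-Tq (1.67), mt-Tw (1.56), mt-Tr (1.52) and mt-Tl2 (0.96).

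mt-Tk, the lysine tRNA, had the largest log2FC of the members on the deposited values, 2.38 ± 0.99, and did not pass (adjusted p = 0.191). Its log2 RPKM was 4.85 to 9.46 in WT (median 7.15), 8.08, 8.01, 6.29, 5.31 and 5.52 in Me-X04-, and 11.13, 10.56, 7.18 and 7.21 in Me-X04+. WT libraries alone spanned more than the difference between the TG groups.

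The tRNA levels ran over a wide range. mt-Tv held 58.2% to 76.2% of all tRNA reads in each library and ranked 4th in the whole table by mean log2 RPKM, next to both rRNAs, which it separates on the genome. It had 12.37 to 14.38 in WT (median 13.86), 14.57, 15.01, 12.97, 13.32 and 13.07 in Me-X04-, and 15.65, 15.88, 13.91 and 14.31 in Me-X04+, with a log2FC of 1.15 ± 0.80 (adjusted p = 0.491). At the other end, mt-Tt was covered by 1 to 48 reads per library and had 1.22 to 3.79 in WT (median 3.42), 1.22, 2.74, 3.74, 3.59 and 3.56 in Me-X04-, and 5.80, 2.44, 4.20 and 4.35 in Me-X04+. Me-X04+ and Me-X04- overlapped, and the difference between them did not pass (adjusted p = 0.360 by limma).

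The mitochondrial genes were also compared with one another. After the mean log2 RPKM of the mitochondrial mRNAs in each library was taken off, which makes the values of the 13 mRNAs sum to 0 in each library, none of the 37 was called between Me-X04+ and Me-X04- by limma and none had an unadjusted p under 0.05, while 0.139% of all genes were called. The relative log2FC values ran from -0.59 to 0.98, with standard errors of up to 1.20 and none under 0.38. The same mean was taken off the nuclear genes, which adds its spread to theirs. limma draws the spread of each member toward that of all genes, which can widen these standard errors. The absence of calls therefore cannot show that the members moved alike. The relative log2FC was -0.25 ± 0.53 for mt-Rnr2, -0.11 ± 0.48 for mt-Rnr1 and 0.72 ± 0.45 for mt-Tf. With the set term, mt-Tf (0.78 ± 0.21, adjusted p = 0.00448) and mt-Tk (0.91 ± 0.32, adjusted p = 0.0175) were higher relative to the mRNAs, where 0.624% of all genes were, and the rRNAs stayed at -0.14 ± 0.28 and -0.04 ± 0.26. In this fit 65.9% of all genes were called in either direction, so that the adjustment over all genes raises the p-values of the members only little. By limma, 5 of the 37 had an unadjusted p under 0.05.

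Between Me-X04- and WT no mitochondrial gene passed the test. Of the 37, 25 had a positive log2FC, and the median was 0.14 against 0.01 over nuclear genes. This median rested on single libraries: it was -0.14, with 9 positive, without Me-X04- library 2, -0.05 (16 positive) without Me-X04- library 1, -0.07 (12 positive) without WT library 7, -0.02 (16 positive) without WT library 6, and up to 0.36 without Me-X04- library 5. With all libraries none had an unadjusted p under 0.05, and every adjusted p was 0.999 by limma, while 0.201% of all genes were called. With the set term none was called (0.563% of all genes), and 3 had an unadjusted p under 0.05. limma voom called none. Me-X04- lay above WT without overlap for 0 of the 37 genes over all libraries, where 0.652% of all genes did, for 15 in set A, where 16.7% did, and for 1 (mt-Te) in set B, where 5.27% did. The 13 protein genes had log2FC values of 0.08 to 0.44 and both rRNAs 0.41 and 0.35, while the tRNAs ran from -0.58 (mt-Ti) to 0.37 (mt-Tg). The standard errors of the rRNAs, 1.12 and 1.34, leave a wide range of differences possible. They too come from a spread tied to the level, and with the set term they were 0.34 and 0.40.

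Between Me-X04+ and WT, which differ in dye, genotype and age, all 37 log2FC values were positive with a median of 1.50, and 12 genes rose where 8.25% of all genes did. They were mt-Tf (2.36 ± 0.55), mt-Ty (1.87 ± 0.35), mt-Td (1.50), mt-Tg (1.50), mt-Nd3 (1.45), mt-Co3 (1.41), mt-Tp (1.38), mt-Tc (1.34), mt-Tn (1.17), mt-Ti (1.06), mt-Th (0.86) and mt-Ts2 (0.76). With the set term all 37 were called, against 11.9% of all genes. The groups did not overlap for 9 genes (6.56% of all genes) and, within both sets, for 32 (11.5%). This comparison shares its Me-X04+ libraries with the first and its WT libraries with the second.

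**Figure D4:**
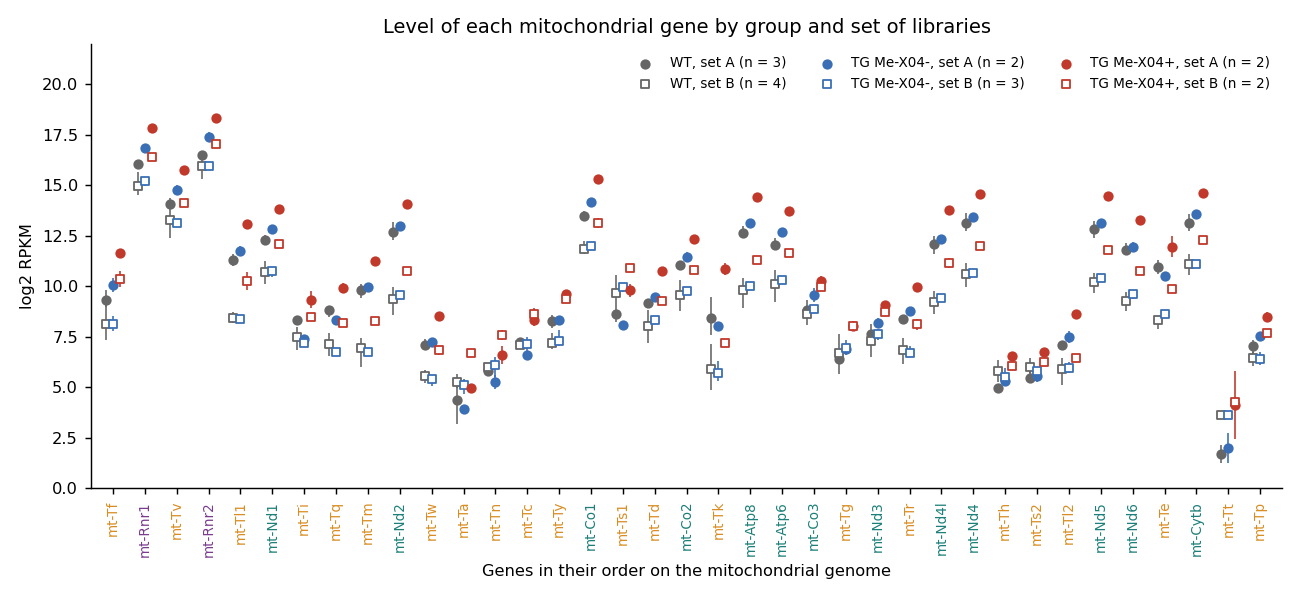
Mean log2 RPKM of each mitochondrial gene in genome order by group (grey WT, blue Me-X04-, red Me-X04+) and set of libraries (filled circles set A, open squares set B), with vertical lines from the lowest to the highest library. Red symbols lie above the blue ones of the same set, and, averaged over groups, set A lies above set B for all rRNA and protein genes but below it for 8 tRNA genes.

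The mitochondrial genes also differed between the sets of libraries. Set B minus set A, after the group means, was -1.54 in median over the 37 genes and 0.20 over nuclear genes. All 13 protein genes were lower in set B, from -3.34 (mt-Nd2) and -3.01 (mt-Atp8) to -0.42 (mt-Nd3) and -0.38 (mt-Co3), as were mt-Rnr1 (-1.33) and mt-Rnr2 (-1.01). Of the tRNAs, 14 were lower, led by mt-Tl1 (-3.06), and 8 were higher, namely mt-Tt (1.39), mt-Ts1 (1.31), mt-Ta (1.18), mt-Tn (0.62), mt-Th (0.27), mt-Ts2 (0.19), mt-Tc (0.18) and mt-Tg (0.14).

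mt-Tl1 shows the first kind, with 8.19 to 11.60 in WT (median 8.72), 11.54, 11.99, 8.30, 8.23 and 8.53 in Me-X04-, and 13.04, 13.17, 10.68 and 9.79 in Me-X04+. mt-Ts1 shows the second, with 8.23 to 10.57 in WT (median 8.83), 7.85, 8.30, 10.13, 9.997 and 9.71 in Me-X04-, and 10.12, 9.49, 11.00 and 10.85 in Me-X04+. In both, the Me-X04+ fraction was higher within each set although the sets were ordered in opposite ways. The difference between Me-X04+ and Me-X04- itself did not pass a test of unlike size in the sets for any member (interaction term, limma adjusted p of at least 0.492).

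Reads of several protein genes cannot be assigned to the mitochondrial genome alone. In the table, 16 nuclear genes had 20% or more of their 16-base words in common with it. Over the 7 copies on chromosome 1, mt-Atp6 and Gm10925 are identical over 678 bases, mt-Co2 and Gm28661 over 681, mt-Co3 and Gm28437 over 783, and mt-Nd4 and Gm28439 over 876, while mt-Co1 and Gm29216 differ at 6 of 492 bases. The reads on the copy were 0.970 to 1.08 times those on the gene for mt-Atp6 over the 16 libraries, 0.927 to 1.00 times for mt-Co2, 0.993 to 1.21 times for mt-Nd4l, 0.773 to 1.02 times for mt-Co3 and 0.880 to 1.03 times for mt-Nd3. They were 0.395 to 0.457 times for mt-Nd4 and 0.0822 to 0.199 times for mt-Co1, whose copies are partial.

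All 16 of these nuclear genes had a positive log2FC between Me-X04+ and Me-X04-, with a median of 1.40, and 2 rose, where 3.44% of all genes did (Gm28438, 1.03 ± 0.28, adjusted p = 0.0423, and Gm20594). They held 0.368% to 1.83% of reads in WT, 0.619% to 1.95% in Me-X04- and 0.995% to 2.72% in Me-X04+. When the reads of the chromosome 1 copies were added to their mitochondrial genes, which was decided on with the values in view, 7 members were called in place of 8.

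**Figure D5:**
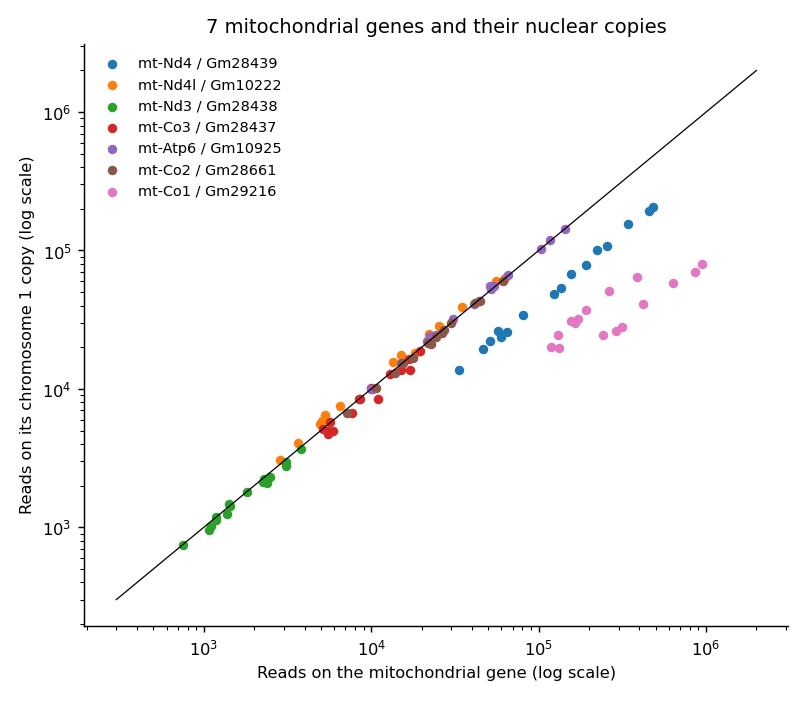
Reads on 7 mitochondrial protein genes and on their copies on chromosome 1 in the 16 libraries (both axes on a log scale; the line marks equal reads). The points of 5 genes lie along the line, and those of mt-Nd4 (0.395 to 0.457 times) and mt-Co1 (0.0822 to 0.199 times) lie below it.

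Nuclear genes that serve the mitochondrial genome were read against all genes tested, of which 3.44% rose and 2.06% fell between Me-X04+ and Me-X04-. Of 35 genes of its transcription, replication and RNA processing, 1 fell and none rose, with a median log2FC of -0.18. The one that fell was Fastkd1 (-1.25 ± 0.30, adjusted p = 0.0194), of a family of mitochondrial RNA-binding proteins. Mterf2, of the transcription termination factor family, had 1.34 ± 0.96 and Hsd17b10, a subunit of mitochondrial RNase P, 0.98 ± 0.36 (adjusted p = 0.130), and the lowest was the rRNA methyltransferase gene Mrm3 at -1.62 ± 0.97. Of the 7 PGC-1 family and respiratory factor genes none passed, from Ppargc1b (-0.90 ± 1.07) and Nrf1 (-0.63 ± 0.43) to Pprc1 (-0.07) and Gabpb1 (0.33 ± 0.45). Of 78 mitochondrial ribosomal protein genes 1 rose, Mrps36 (1.12 ± 0.31, adjusted p = 0.0416), and the median was -0.05, with Mrpl27 at 1.15 and Mrps5 and Mrps11 at -1.76 and -1.65, none of which passed.

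Nuclear genes of the respiratory complexes, listed by symbol and not from a curated set of subunits, had medians between those of these lists and that of the mitochondrial genes. Their counts of calls stand against the same 3.44% of all genes. For complex I, 2 of 36 rose, Ndufa1 (2.53 ± 0.43, adjusted p = 0.00229) and Ndufa12 (1.24 ± 0.30, adjusted p = 0.0227), none fell and the median was 0.44. The lowest complex I values were those of Ndufs6 (-1.04 ± 0.87) and Ndufv1 (-0.73 ± 0.66). Of the 4 complex II subunits, the complex with no mitochondrial gene, none passed and the median was 0.42, with Sdhc at 0.51, Sdha at 0.45, Sdhb at 0.40 and Sdhd at -0.26. For complex III, 1 of 9 rose (Uqcrh, 1.70 ± 0.29, adjusted p = 0.00248), with a median of 0.58, and Uqcr10 had 1.25, Cyc1 -0.01 and Uqcrc1 -0.95 without passing.

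For complex IV, all 14 nuclear genes listed by their Cox symbols had a positive log2FC, the median was 0.76 and 3 rose, Cox6a2 (3.32 ± 0.66, adjusted p = 0.00698), Cox7b and Cox7a2l. Cox8a had 1.23 ± 0.41 (adjusted p = 0.0980), and the lowest were Cox5b (0.15) and Cox6b2 (0.02). For complex V, 1 of 17 rose (Atp5mpl, 1.63 ± 0.30, adjusted p = 0.00435), with a median of 0.58, and Atp5l had 1.18, Atp5g2 -0.04 and Atp5s -1.03. Between Me-X04- and WT no gene of these lists passed on the deposited values.

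Markers of other brain cells were low in all groups. The summed level of the 3 listed neuronal markers of 8 was 0.461 to 1.91 RPKM in WT, 0.507 to 1.01 in Me-X04- and 0.106 to 0.489 in Me-X04+. The 5 astrocyte markers of 7 summed to 15.5 to 29.7, 14.0 to 28.3 and 9.86 to 19.4, the 6 oligodendrocyte markers of 7 to 7.37 to 17.9, 14.0 to 16.1 and 10.8 to 15.4, and the 2 endothelial markers of 6 to 2.27 to 12.5, 1.19 to 1.98 and 1.13 to 7.59. The 7 markers of other myeloid cells summed to 4.54 to 19.5, 3.75 to 28.0 and 5.05 to 27.2 RPKM. Of the microglial markers, Trem2 rose by 1.35 ± 0.23 (adjusted p = 0.00210) and Tmem119 fell by 1.58 ± 0.32 (adjusted p = 0.00821) between Me-X04+ and Me-X04-. Of the 2 endothelial markers 1 rose, where 3.44% of all genes did, and no neuronal, astrocyte, oligodendrocyte or other myeloid marker passed. The part of these marker differences in the mitochondrial values was not tested.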

How the data were processed

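Per the labels, reads were trimmed with Trim Galore 0.4.4, aligned to GRCm38 with STAR 2.5.4b and counted with featureCounts; the study's methods name Gencode M16. Strand and multi-mapping settings of the count are not given in the sources used here. The authors deposited log2 RPKM from edgeR 3.24.3 with scaled library sizes and a prior of 2 reads, from which whole reads were recovered (tolerance 0.01). The authors' columns of their own comparisons (fold changes, p-values) were not used.

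Members and lists were chosen with earlier results of these data known. limma 3.58.1 (R 4.3.3) with a variance trend was fitted to all 17951 genes and 16 libraries, because the deposited unit does not suit the study's count test; a call needed an adjusted p below 0.05 with a log2FC of 0.7 or more in size. The code was tested on simulated data. Ratios were compared with exact permutation tests (scipy 1.17.1). All members are named; of each nuclear list, the 2 highest and 2 lowest log2FC between the transgenic groups are, besides called genes, chosen after their values were seen. Same-numbered TG libraries were taken to come from 1 animal by the numbers in their labels, and their deviations correlated at 0.29 to 0.33 (mean over different animals -0.07). Same-numbered TG libraries always lie in the same set, so that this correlation cannot tell a shared animal from a shared set. WT libraries, each with its own label, are taken as separate animals. Reference sequences are from Gencode M21.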

Additional observations from a re-analysis of the deposited data

Results flagged for a closer look

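In the WT group, mt-Ta (the alanine tRNA) had a log2 RPKM of 3.20 in library 3, while the other 6 lay between 4.94 and 5.66, a gap of 0.707 of the group's range. It was the only one of 117 groups of values tested (37 genes, the mitochondrial share and the rRNA ratio in 3 groups) with a library so far from the others. Chance alone would flag about 1 in 20 groups, so that a single flag is no more than chance would give. The flagged value rests on 8 reads.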

How the results depend on the processing

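For Me-X04+ against Me-X04-, 8 mitochondrial genes were called; the share of all genes that rose follows each count in brackets. The count was 4 without a variance trend (2.94%) or with only the compared groups in the fit (1.93%), 5 with median centring on nuclear genes (3.34%), 3 with scaling by reads outside mitochondrial genes (1.72%) and 0 after quantile normalization (2.35%). It was 14 with the replicate block as a fixed number (3.25%), 15 with the replicate block as a random animal (6.28%) and 33 with the set term (7.38%). Decided on with the values in view, the set term with scaling by other reads gave 26 (898 of 17951 genes), set A alone 4 (0.351%) and set B alone 18 (1328 genes). Leaving out 1 library at a time gave 3 to 8 (1.89% to 3.78%), with 3 without Me-X04- library 5 or Me-X04+ library 3, 4 without Me-X04- library 4 or Me-X04+ library 1 or 2, and 5 without WT library 2, 4 or 6 or Me-X04- library 1 or 3. For Me-X04+ against WT, 12 were called (8.25%), 2 after quantile normalization (7.69%), 8 with only the compared groups in the fit (7.23%), 37 with the set term (11.9%), 36 with the set term and scaling by other reads (10.2%), 33 in set A alone (5.79%), 27 in set B alone (11.6%), and 8 to 14 with 1 library left out (7.14% to 8.41%). For Me-X04- against WT every alternative gave 0 (up to 0.819% of all genes), as did every omission (0.106% to 0.178%); with the replicate number as a fixed block 6 of the 37 were positive in place of 25, and same-numbered WT and TG libraries come from different animals. No member called on the deposited values or under an alternative had opposite signs in both. For Me-X04+ against Me-X04-, mt-Nd3 lost its call in 22 of 36 alternative fits, and mt-Tf and mt-Tp each in 16. mt-Tg lost it in 14, mt-Tn in 8, mt-Ty in 2, and mt-Ti and mt-Tc each in 1.

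Relative to the mitochondrial mRNAs, 2 members were called with the set term in each comparison that involves Me-X04+ (against WT mt-Tf at 0.77 and mt-Ts2 at -0.71), and 1 against WT relative to mt-Rnr2; against WT, 77.5% and 58.0% of all genes were called in either direction in these fits. The replicate block changed no other call. With 1 library left out the count was 0 to 0, and the rRNA ratio differences ran from -0.17 to -0.07, from -0.12 to -0.00266 and from -0.26 to -0.14 for Me-X04+ against Me-X04-, Me-X04- against WT and Me-X04+ against WT. Outside the rRNAs, the mitochondrial share averaged 5.77% (WT), 7.27% (Me-X04-) and 14.4% (Me-X04+). In set A alone Me-X04- averaged 41.8%, and with 1 library left out the means ran from 22.03% to 25.2%, 25.4% to 31.4% and 39.5% to 48.0%. The cause of these changes was not tested. Depth limits mt-Tt (1 to 48 reads per library) and mt-Ta (8 to 184).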

Other observations

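Among mitochondrial mRNA reads, the parts taken by the complexes also followed the sets. Complex I genes took 49.3% to 56.0% in set A and 36.4% to 47.9% in set B, and complex IV genes 23.8% to 31.0% and 33.2% to 46.4%, without overlap. mt-Cytb took 12.1% to 14.7% and 12.3% to 16.1%, and the ATP synthase genes 5.42% to 6.47% and 3.93% to 6.75%, with overlap. By group, complex I took 36.4% to 56.0% in WT, 41.0% to 50.1% in Me-X04- and 41.8% to 51.6% in Me-X04+, so that the groups overlap. mt-Co1 alone held 21.7% to 42.4% of mitochondrial mRNA reads over the 16 libraries, and mt-Nd3 0.0735% to 0.479%.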
